A study of Mus musculus with 76 samples.

Results

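A set of 8 germline genes, which are normally expressed in germ cells and held silent in somatic tissues by epigenetic marks, were followed through the early development of mice whose mothers lacked Ezhip. These genes, Asz1, Mael, Mov10l1, Ddx4, Dazl, Sycp1, Sycp3 and Tex101, were taken by symbol from the 48321 genes of the deposited count tables, and all 8 had a row in every table. They were chosen with results of these data known, among them the low Asz1 level in blastocysts of the knockout, so blastocyst values are given as a description without a test.

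RNA was sequenced from 76 single oocytes, embryos or pieces of extraembryonic ectoderm (ExE, the trophoblast tissue next to the epiblast). The labels give Ezhip maternal knockout (Ezhip matKO, here matKO) and wild type (WT) as genotypes, together with the sex, and name no strain, age, litter or further allele. Oocytes numbered 4 matKO and 3 WT, all female. Embryos at the 2-cell stage (2C) numbered 6 female and 6 male matKO, against 5 female and 6 male WT. Blastocysts numbered 7 female and 7 male matKO, against 6 female and 8 male WT. ExE of embryonic day 6.5 numbered 5 female and 3 male matKO, against 6 female and 4 male WT. The question was what the absence of maternal Ezhip does to the early embryo. Ezhip encodes an inhibitor of PRC2, the complex that places the H3K27me3 histone mark.

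Germline genes are silenced outside the germ line in several layers. Many have promoters rich in CpG dinucleotides that gain DNA methylation around implantation, through DNMT3B, and many are bound earlier by the noncanonical Polycomb complex PRC1.6, which reads the E2F6 and the MGA-MAX motifs. Asz1, Mael and Mov10l1 act in the piRNA pathway, which uses small RNAs to restrain transposons in germ cells: Asz1 encodes a scaffold of the granules at germ cell mitochondria, Mael an HMG-domain protein of the same granules, and Mov10l1 an RNA helicase that acts on piRNA precursors. Ddx4 encodes the mouse Vasa RNA helicase, and Dazl an RNA-binding regulator of translation. Sycp1 forms the transverse filaments and Sycp3 the lateral elements of the synaptonemal complex, which holds paired meiotic chromosomes together. Tex101 encodes a surface glycoprotein of testicular germ cells needed for sperm to fertilize.

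The promoters of all 8 genes were found in the RefSeq table (GRCm38.p6, 250 bases before to 50 bases after the start). Each held between 15 and 38 CpG dinucleotides in 300 bases, against a median of 7 and an upper quartile of 20 over 32851 windows of the same length. The count was highest in Ddx4, above that of 95% of all windows, and lowest in Sycp3, above that of 65.4%; Asz1, Sycp3 and Tex101 lay under the upper quartile. The Asz1 and Tex101 promoters are shown, with the CpG dinucleotides in capitals, because these genes were called between matKO and WT in ExE. As set out below, these calls are not independent of the filter on low counts, and each genotype had its own library prefix there. The promoters were therefore picked for display only. Asz1 lies on the minus strand at chr6:18109012-18109311, with 17 CpG, and Tex101 on the minus strand at chr7:24672001-24672300, with 19 CpG. The Tex101 window belongs to the RefSeq start; the gene as counted in the tables begins 4625 bases further upstream, whereas for the other 7 genes both starts lay within 85 bases of each other.
Asz1: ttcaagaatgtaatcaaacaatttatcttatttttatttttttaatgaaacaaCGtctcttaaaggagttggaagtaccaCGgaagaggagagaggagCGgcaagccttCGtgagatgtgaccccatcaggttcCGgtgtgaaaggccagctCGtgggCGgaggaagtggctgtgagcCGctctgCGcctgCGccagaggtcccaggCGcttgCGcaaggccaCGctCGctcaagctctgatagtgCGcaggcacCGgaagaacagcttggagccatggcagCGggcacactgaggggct
Tex101: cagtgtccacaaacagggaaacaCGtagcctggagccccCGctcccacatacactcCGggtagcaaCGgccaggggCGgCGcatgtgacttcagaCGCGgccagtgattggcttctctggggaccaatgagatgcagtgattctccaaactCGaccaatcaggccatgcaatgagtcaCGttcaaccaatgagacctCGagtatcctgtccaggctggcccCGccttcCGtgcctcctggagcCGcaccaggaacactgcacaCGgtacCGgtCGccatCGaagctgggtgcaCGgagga
The bases GCGGGAA, an E2F6 motif, and CACGTG, an E-box read by MGA and MAX, were searched on both strands. CACGTG was present in the promoters of 5 of the 8 genes, Ddx4, Mael, Sycp1, Sycp3 and Mov10l1, against 7.15% of all windows, and GCGGGAA in those of Ddx4 and Sycp3, against 4.6% of all windows. These letters were not found in the windows of Asz1, Dazl and Tex101. The 2 promoters with both motifs are shown with the motifs in capitals. Ddx4 lies on the minus strand at chr13:112652261-112652560 with 38 CpG, and Sycp3 on the plus strand at chr10:88459337-88459636 with 15 CpG.
Ddx4: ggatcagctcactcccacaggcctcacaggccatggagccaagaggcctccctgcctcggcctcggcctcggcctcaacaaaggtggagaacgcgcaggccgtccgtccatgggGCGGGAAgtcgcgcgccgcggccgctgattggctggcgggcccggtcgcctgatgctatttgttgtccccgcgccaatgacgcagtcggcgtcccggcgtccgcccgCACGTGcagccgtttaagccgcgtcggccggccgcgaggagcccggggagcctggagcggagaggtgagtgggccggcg
Sycp3: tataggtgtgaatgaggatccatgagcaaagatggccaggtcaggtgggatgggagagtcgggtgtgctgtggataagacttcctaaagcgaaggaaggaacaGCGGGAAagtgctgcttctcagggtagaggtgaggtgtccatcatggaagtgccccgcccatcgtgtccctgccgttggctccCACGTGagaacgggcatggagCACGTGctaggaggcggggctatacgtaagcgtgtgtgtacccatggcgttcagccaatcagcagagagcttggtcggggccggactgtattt
Both motifs stood together in 0.457% of all windows.

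Library totals ranged between 1049224 and 14127560 counts in 2C embryos and between 2736211 and 31985958 in the other stages. Ezhip, listed as AU022751, averaged 0.241 ± 0.164 CPM in matKO oocytes, against 1104 ± 250.3 CPM in WT oocytes (SD, n = 4 and 3), and 2.53 ± 4.04 CPM in matKO 2C embryos, against 119 ± 68.6 CPM in WT 2C embryos (SD, n = 12 and 11). CPM are counts relative to the TMM-scaled library total. The oocyte markers (Gdf9, Zp3 and 5 others) and the 2-cell, trophectoderm and ExE markers were detected in the tissues so labelled. In ExE all matKO libraries carried the identifier prefix D707T and all WT libraries D1042C, so an effect of the prefix and one of the genotype cannot be told apart. In oocytes, in 2C embryos and in blastocysts of prefix D707T the identifier numbers of the genotypes did not overlap. Library order and genotype cannot be told apart there either. Because whole embryos were sequenced, fewer cells with a transcript and less transcript per cell cannot be told apart.

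In WT the 8 genes followed different courses from the oocyte to ExE. Dazl and Mael had their highest mean in oocytes and were low from the blastocyst on. Sycp1, Sycp3 and Mov10l1 had their highest mean in 2C embryos. Asz1 and Ddx4 were highest in oocytes and had a second, lower peak, Asz1 in blastocysts and Ddx4 in ExE, while Tex101 was near 0 throughout. Per kilobase of exon, the order of mean levels in WT oocytes was Dazl at 198, Mael at 59.5, Asz1 at 42.2, Ddx4 at 15.7, Sycp3 at 3.89, Sycp1 at 2.61 and Mov10l1 at 1.11 CPM per kilobase, with Tex101 at 0. The ranges of the first 4 genes did not overlap with the gene next in order, whereas Sycp3, Sycp1 and Mov10l1 overlapped with their neighbours among themselves. In WT blastocysts the order was led by Asz1 at 11.4 ± 3.82 CPM per kilobase, followed by Sycp3 at 6.59 ± 2.73 and Sycp1 at 1.66 ± 2.01 (SD, n = 14), with overlapping ranges. In WT ExE it was led by Ddx4 at 8.94 ± 5.79 CPM per kilobase, and its range did not overlap with that of Sycp3, the next gene, at 1.67 ± 1.36 (SD, n = 10).

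**Figure D1:**
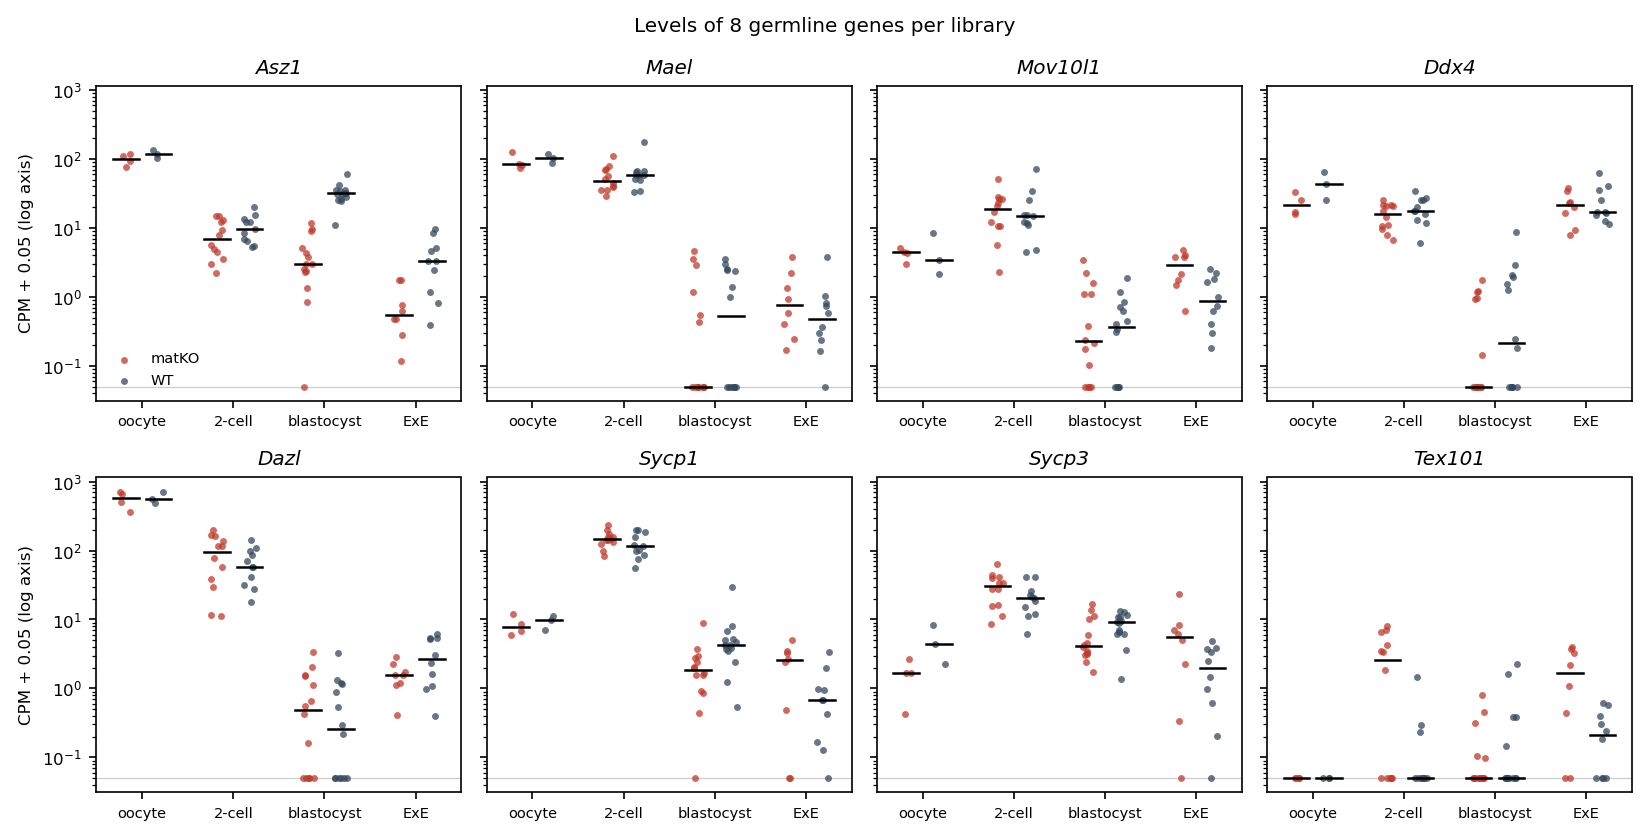
Level of each gene in every library, as CPM plus 0.05 on a log axis, by stage, with matKO libraries in red left of WT libraries in dark blue; black lines are medians and the grey line marks 0 counts. Asz1 in blastocysts has medians of 2.98 CPM in matKO and 31.8 CPM in WT blastocysts.

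The steps between stages were tested in WT with edgeR's quasi-likelihood test in a model of all 76 libraries. From the oocyte to the 2C stage, 4 of 8 genes were called at an adjusted p below 0.05, 2 higher and 2 lower, against 42.7% of the 20943 genes tested, of which 22.1% were higher and 20.6% lower. Asz1 fell by 3.66 ± 0.56 (log2 fold change ± SE; adjusted p = 1.604e-07) and Dazl by 3.28 ± 0.73 (adjusted p = 0.000188). The synaptonemal genes rose, Sycp1 by 3.64 ± 0.89 (adjusted p = 0.00064) and Sycp3 by 2.06 ± 0.87 (adjusted p = 0.0484). Without any 1 of the 3 WT oocytes Sycp3 was no longer called, with adjusted p between 0.0549 and 0.187, nor was it with RLE factors (0.0968), without the count filter (0.107) or in female libraries alone (0.106). Chpt1, which shares exonic bases with Sycp3 on the opposite strand, stood at 36.97 ± 14.9 CPM in WT 2C embryos, against 9.60 ± 1.92 CPM in WT oocytes (SD, n = 11 and 3), and its part in the Sycp3 counts was not tested. The median log2 fold change of the 8 genes was 0.50, against 0.07 over all genes tested.

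The WT blastocyst values of Asz1 are among those the genes were chosen on, so Asz1 is described without a test in the steps that use them. Between the 2C stage and the blastocyst, 6 of the other 7 genes were called, all lower, against 70.2% of all genes called, 28.3% higher and 41.9% lower. Dazl fell to 0.606 ± 0.893 CPM in WT blastocysts, against 66.6 ± 37.9 CPM in WT 2C embryos (SD, n = 14 and 11), a fold change of 121. Mael fell 61.6-fold, Mov10l1 40.6-fold, Sycp1 21.8-fold and Ddx4 14.4-fold, each with an adjusted p of 2.868e-07 or lower. Sycp3 fell less, by 1.35 ± 0.46 on the log2 scale (adjusted p = 0.00733; 0.325 in female libraries alone), while Chpt1 stood at 68.2 ± 14.1 CPM in WT blastocysts (SD, n = 14). Asz1 had a mean of 32.1 ± 10.8 CPM in WT blastocysts, against 10.53 CPM in WT 2C embryos, a log2 fold change of 1.58 ± 0.40. The median log2 fold change of the 8 genes was -4.15, against -0.51 over all genes. It includes Asz1 and is a description only.

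In ExE relative to blastocysts 4 of the 7 genes other than Asz1 were called in WT, 2 higher and 2 lower, against 54.7% of all genes, 31.7% higher and 23% lower. Ddx4 was higher in ExE, with 25.5 ± 16.5 CPM in WT ExE, against 1.32 ± 2.33 CPM in WT blastocysts (SD, n = 10 and 14; log2 fold change 4.23 ± 0.66, adjusted p = 1.125e-07). All 10 WT ExE libraries held Ddx4 transcripts, the lowest at 11.5 CPM, which lies above the highest WT blastocyst at 8.66 CPM. Dazl rose too, with a log2 fold change of 2.56 ± 0.59 (adjusted p = 0.000186), to a level of 3.12 ± 2.19 CPM in WT ExE. Sycp1 and Sycp3 fell, by 2.53 ± 0.52 and 1.95 ± 0.51 on the log2 scale, with adjusted p of 2.705e-05 and 0.000872, and Chpt1 stood at 8.21 ± 2.94 CPM in WT ExE. The log2 fold change of Asz1 was -3.02 ± 0.45. Markers of primordial germ cells, summed over 6 genes that include Prdm1, Nanos3 and Kit, ranged between 6.70 and 34.2 CPM in WT ExE, and their part in the Ddx4 and Dazl levels was not tested. The median log2 fold change of the 8 genes, again with Asz1 included, was -0.38, against 0.16 over all genes. All WT ExE libraries carried the prefix D1042C and no WT blastocyst did, so stage and prefix cannot be told apart in this last step. WT oocytes, WT 2C embryos and 4 WT blastocysts shared D707T. Their identifier numbers did not overlap between stages, so stage and library order cannot be told apart there. With blastocysts of D707T only, which still differ from ExE in prefix, Dazl had an adjusted p of 0.121 in the last step.

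**Figure D2:**
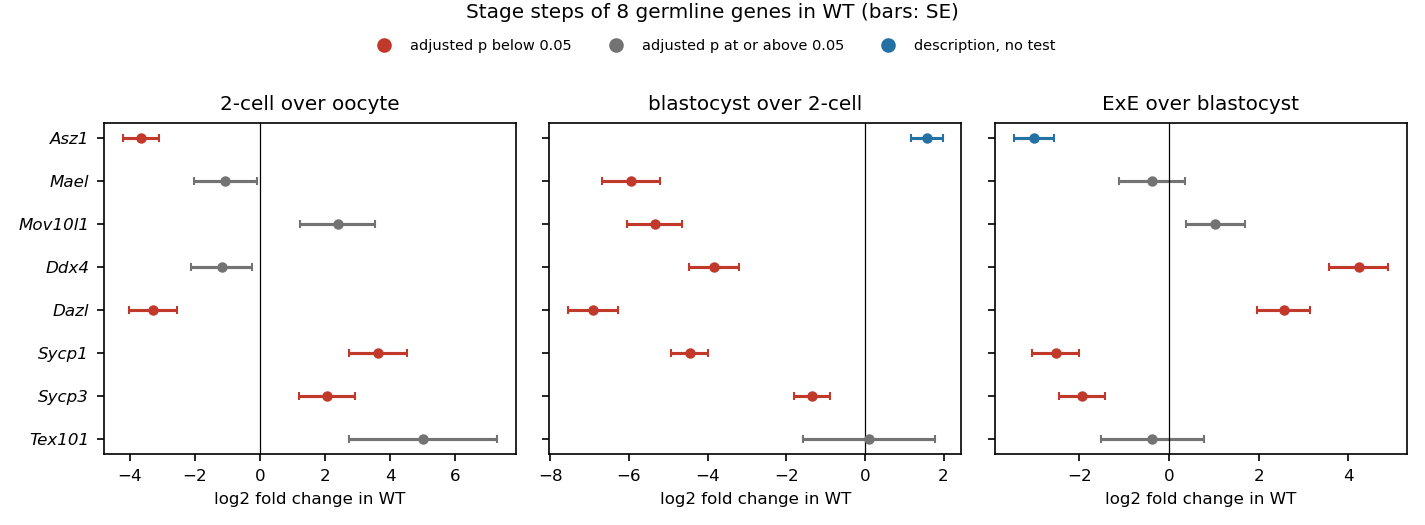
Log2 fold change of each gene in WT between successive stages, with bars of 1 SE; red points passed an adjusted p of 0.05, grey points did not, and blue points are Asz1 in the steps described without a test. Asz1 stands at 1.58 in the blastocyst over 2C step, where 6 of the other genes were called lower.

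In oocytes none of the 7 genes tested was called between matKO and WT by edgeR's quasi-likelihood test, against 0.0202% of 14838 genes tested. At an unadjusted p below 0.05 there were 2, Ddx4 and Sycp3, against 6.26% of all genes, and DESeq2 called 0 of them as well. Ddx4 stood at 15.8, 16.8, 25.6 and 33.4 CPM in matKO oocytes, against 25.4, 43.4 and 64.99 CPM in WT oocytes. The 2 lowest matKO oocytes lay under every WT oocyte and the other two within the WT range (log2 fold change -0.95 ± 0.34, adjusted p = 0.785). Sycp3 stood at 0.377, 1.62, 1.64 and 2.66 CPM in matKO oocytes, against 2.21, 4.42 and 8.12 CPM in WT oocytes, so 3 of 4 matKO oocytes lay under every WT oocyte (log2 fold change -1.64 ± 0.69, adjusted p = 0.785). Sycp3 shares 660 of its 1264 exonic bases with Chpt1 on the opposite strand, and no source used here gives the strand setting of the counting, so Sycp3 values are uncertain at every stage. Chpt1 averaged 7.07 ± 2.51 CPM in matKO oocytes and 9.60 ± 1.92 CPM in WT oocytes (SD, n = 4 and 3).

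The remaining piRNA pathway genes and Dazl had similar means in oocytes of both genotypes. Asz1 stood at 76.9, 92.0, 110 and 120 CPM in matKO oocytes, against 105, 119 and 134 CPM in WT oocytes, with overlapping groups (log2 fold change -0.25 ± 0.18, adjusted p = 0.875). Dazl averaged 560.0 ± 162 CPM in matKO and 583 ± 105 CPM in WT oocytes, and Mael 91.5 ± 22.96 CPM in matKO and 103 ± 14.6 CPM in WT oocytes (SD, n = 4 and 3). Mov10l1 and Sycp1 differed by -0.13 ± 0.54 and -0.16 ± 0.38 on the log2 scale. Tex101 had 0 counts in all 7 oocytes, which allows up to 0.0538 CPM over the 4 matKO oocytes and 0.0812 CPM over the 3 WT oocytes, at 3 counts per group and for counting error only. The median log2 fold change of the 7 genes tested was -0.16, against 0.02 over all genes. Stroma markers, summed over 8 genes, ranged between 11.8 and 46.9 CPM in matKO oocytes and between 87.5 and 138 CPM in WT oocytes, with no member called and Pgr at 0 in matKO oocytes. Cumulus and granulosa cell markers, summed over 7 genes, ranged between 422 and 2162 CPM in matKO and between 789 and 1922 CPM in WT oocytes, with 1 of 5 tested called lower and Foxl2 at 0 in WT. The part of these cells in the oocyte values was not tested.

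In 2C embryos none of the 8 genes was called by edgeR's quasi-likelihood test, against 0.731% of 14506 genes tested; 1, Tex101, had an unadjusted p below 0.05, against 14.2% of all genes, and DESeq2 called 0. Tex101 had the largest fitted difference between genotypes among the 8 genes at this stage. It was at 0 in 5 matKO embryos and stood at 1.78, 3.33, 3.48, 4.15, 6.503, 6.90 and 8.11 CPM in the other 7. In WT it was at 0 in 8 embryos and stood at 0.185, 0.241 and 1.43 CPM in the other 3. All 7 matKO embryos with a Tex101 count lay above every WT embryo, and these values rest on 194 counts over the 12 matKO embryos and 15 counts over the 11 WT embryos. The log2 fold change was 3.94 ± 1.31 with an adjusted p of 0.151, and leaving out single embryos gave adjusted p between 0.0517 and 0.326. With edgeR's newer fit (legacy=FALSE) the adjusted p was 0.0175. Tex101 passed the filter on low counts through matKO embryos: 7 matKO and 1 WT embryo reached its level, and 5 were needed. A gene that enters a test through the group where it is higher tends to differ, so these p-values are not independent of the filter; without the filter the adjusted p was 0.102.

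By sex, Tex101 was detected in 5 of 6 female and 2 of 6 male matKO embryos, against 1 of 5 female and 2 of 6 male WT embryos. The fitted log2 fold change was 6.06 ± 1.98 in females and 2.50 ± 1.53 in males, and their difference of 3.55 ± 2.23 was not called (adjusted p = 0.794). None of the 8 genes was called for a difference of the genotype effect between the sexes, against 0.0% of all genes. None had an unadjusted p below 0.05 in this test, against 6.41% of all genes. Beside Tex101, markers of the 2-cell embryo ranged between 98.5 and 1244 CPM in matKO and between 21.2 and 300.0 CPM in WT embryos, summed over Zscan4c, Zscan4d, Zfp352, Usp17lc and Tcstv3, of which 3 of 5 were called higher in matKO. Markers of granulosa cells ranged between 0 and 5.36 CPM in matKO and between 0 and 1136 CPM in WT embryos, with 3 of 5 tested called lower and Cyp11a1, Fst and Foxl2 at 0 in matKO embryos, and Amh and Foxl2 at 0 in WT embryos. Their part in the Tex101 values was not tested.

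**Figure D3:**
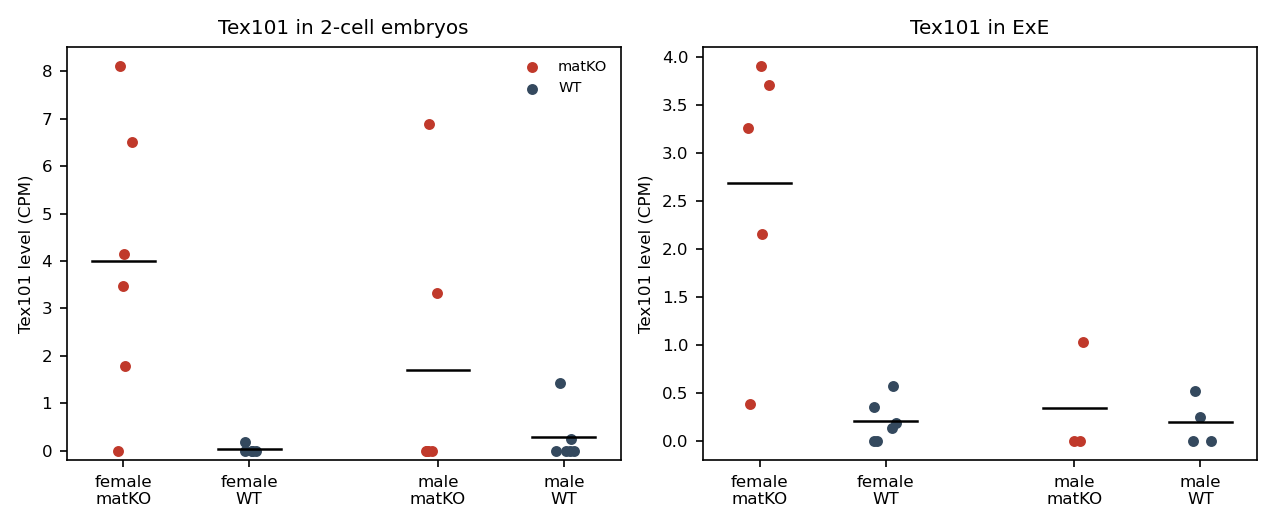
Tex101 level in CPM in single 2C embryos (left) and ExE pieces (right), by sex and genotype; black lines are means. In both tissues the highest values belong to female matKO libraries, at 8.11 CPM in 2C embryos and 3.91 CPM in ExE, and no WT library exceeds 1.43 CPM in 2C embryos or 0.568 CPM in ExE.

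The other 7 genes overlapped between the genotypes in 2C embryos. Asz1 ranged between 2.17 and 15.1 CPM with a median of 6.79 in matKO embryos, against 5.23 to 20.1 CPM with a median of 9.66 in WT embryos (log2 fold change -0.38 ± 0.39, adjusted p = 0.703). In the matKO group 5 embryos lay under every WT embryo and 2 WT embryos above every matKO embryo. Dazl averaged 93.4 ± 64.7 CPM in matKO and 66.6 ± 37.9 CPM in WT embryos (SD, n = 12 and 11). Mael averaged 55.3 ± 23.6 CPM in matKO and 65.1 ± 38.2 CPM in WT embryos. Sycp1 averaged 149 ± 40.9 CPM in matKO and 127 ± 50.8 CPM in WT embryos. Ddx4 and Mov10l1 differed by -0.26 ± 0.31 and 0.04 ± 0.44, and Sycp3 by 0.51 ± 0.33, on the log2 scale. The median over the 8 genes was 0.17, against 0.02 over all genes.

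Asz1 had a lower level in every group of matKO blastocysts than in the matching WT group. It ranged between 0 and 11.6 CPM with a median of 2.98 in the 14 matKO blastocysts, against 11.1 to 60.6 CPM with a median of 31.8 in the 14 WT blastocysts. The groups overlapped only through 1 matKO male at 11.6 CPM and 1 WT female at 11.1 CPM, so 13 of 14 matKO blastocysts lay under every WT blastocyst. Means were 4.16 ± 3.503 CPM in matKO and 32.1 ± 10.8 CPM in WT blastocysts (SD, n = 14 each), and the fitted log2 fold change was -2.80 ± 0.36. This contrast chose the genes, so no test is given; 6.3% of the 13445 genes tested were called in it, and nothing is read from that share.

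The low Asz1 level was present under both library prefixes and in both sexes. Under D405T it averaged 5.71 ± 3.82 CPM in 6 matKO blastocysts and 31.1 ± 5.27 CPM in 10 WT blastocysts, with a highest matKO value of 11.6 and a lowest WT value of 24.2 CPM. Under D707T it averaged 3.00 ± 2.96 CPM in 8 matKO and 34.8 ± 20.3 CPM in 4 WT blastocysts, with a highest matKO value of 9.52 and a lowest WT value of 11.1 CPM. Within each prefix the genotypes therefore did not overlap. The share of all genes without overlap was not counted within a prefix, and this contrast chose the genes, so nothing is read from it. Over the whole stage, every matKO blastocyst lay under every WT blastocyst in 0.0149% of 13445 genes, and Asz1 was not among them. The 4 WT blastocysts of D707T held 1 female. Their identifier numbers ran from 1 to 4, against 5 to 12 in matKO, so library order and genotype cannot be told apart there. The fitted log2 fold changes were -2.46 within D405T and -3.07 within D707T, and -2.68 ± 0.53 in females and -2.89 ± 0.50 in males. Leaving out each library in turn gave values between -2.98 and -2.62. Trophectoderm markers, summed over 6 genes, ranged between 801 and 5032 CPM in matKO and between 2107 and 7100 CPM in WT blastocysts, with 3 of 6 called lower in matKO, while inner cell mass markers ranged between 940 and 1450 CPM in matKO and between 451 and 1030 CPM in WT, with 2 of 7 called higher; none of these markers was at 0 in either genotype, and their part in the Asz1 level was not tested.

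**Figure D4:**
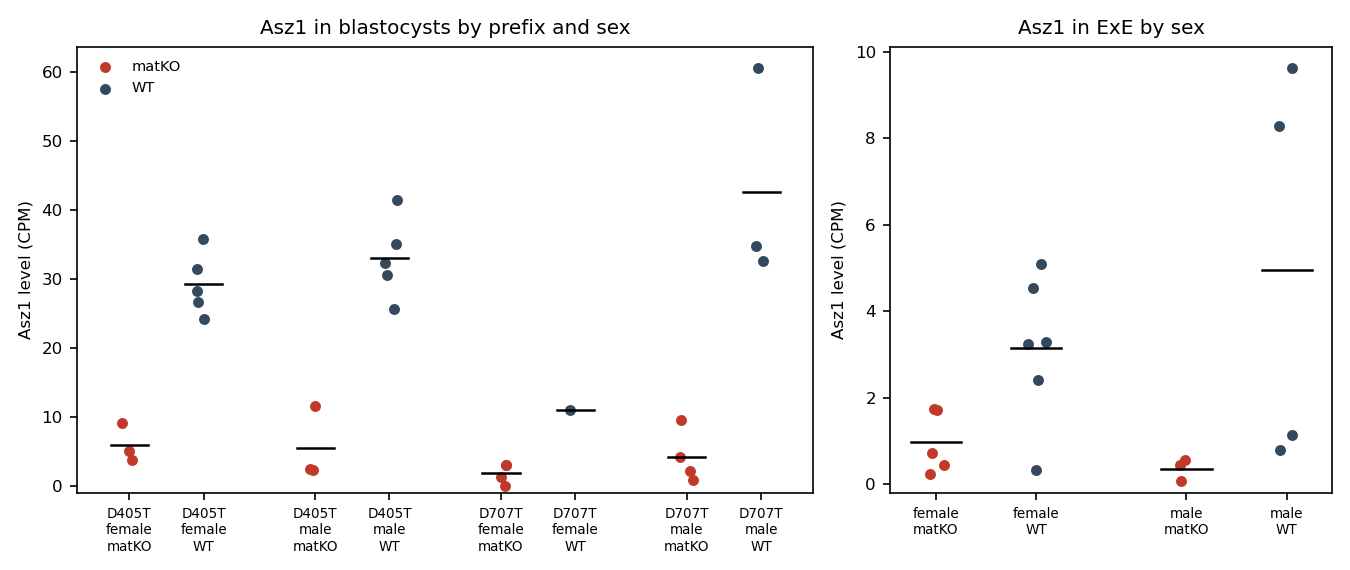
Asz1 level in CPM in single blastocysts by library prefix, sex and genotype (left) and in single ExE pieces by sex and genotype (right); black lines are means. Within each prefix every matKO blastocyst lies under every WT blastocyst, a description of the contrast that chose the genes. The 8 matKO ExE pieces reach at most 1.73 CPM.

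Set beside the stages before and after it, Asz1 had a mean of 99.7 CPM in matKO oocytes, 7.999 in matKO 2C embryos, 4.16 in matKO blastocysts and 0.736 in matKO ExE, against 119, 10.53, 32.1 and 3.87 CPM in the same order in WT. The WT series thus had a higher level in blastocysts than in 2C embryos, and the matKO series did not. The difference between these courses rests on the blastocysts that chose the genes and was not tested. Across the 28 blastocysts of both genotypes, the genes whose log2 level was most like that of Asz1 were Nsdhl (Pearson r = 0.839), Akr1a1 (0.829), Lgalsl (0.828), Rbm44 (0.826) and Hmgn1 (0.817), of 8513 genes ranked; these values include the difference between genotypes. Across all 76 libraries they were Gkap1 (0.783), Fam161a (0.746) and Ooep (0.744), where all points share the differences between stages.

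The other germline genes were at low levels in blastocysts of both genotypes. Sycp1 ranged between 0 and 8.87 CPM with a median of 1.78 in matKO, against 0.487 to 29.8 CPM with a median of 4.24 in WT blastocysts, with overlapping groups and a fitted log2 fold change of -1.45 ± 0.53. Sycp3 averaged 6.23 ± 4.71 CPM in matKO and 8.33 ± 3.46 CPM in WT blastocysts (SD, n = 14 each). Transcripts were at 0 counts in 8 of 14 matKO and 6 of 14 WT blastocysts for Ddx4, in 8 matKO and 7 WT for Mael, in 5 matKO and 6 WT for Dazl, in 4 matKO and 5 WT for Mov10l1, and in 9 matKO and 9 WT for Tex101. Means of these 5 genes ranged between 0.108 and 0.920 CPM in matKO and between 0.327 and 1.32 CPM in WT blastocysts. Mael differed between the prefixes: it averaged 1.88 ± 1.99 CPM in matKO and 0.575 ± 1.01 CPM in WT under D405T, and 0.203 ± 0.410 CPM in matKO and 2.56 ± 0.916 CPM in WT under D707T. The fitted Mael log2 fold change was 1.67 within D405T and -3.79 within D707T. Tex101 did not pass the filter on low counts.

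In ExE 2 of the 8 genes were called between matKO and WT, Asz1 lower and Tex101 higher. This share of 25% is near the 24.9% called among all 14156 genes tested, of which 14.1% were higher and 10.7% lower. Both genes passed the filter on low counts through the genotype in which they were higher, Asz1 with 8 WT pieces and 1 matKO piece at its level and Tex101 with 4 matKO pieces and 0 WT pieces, where 3 were needed. The calls are therefore not independent of the filter, and nothing is read from their count; without the filter the adjusted p was 0.0179 for Asz1 and 0.0408 for Tex101. For Sycp1 only matKO reached the needed number, with 5 matKO and 2 WT pieces at its level, and Mael passed only with both genotypes counted together. Asz1 stood at 0.0689, 0.230, 0.432, 0.435, 0.567, 0.720, 1.71 and 1.73 CPM in the 8 matKO pieces, against a range between 0.336 and 9.63 CPM with a median of 3.26 in the 10 WT pieces. All 8 matKO pieces lay under the WT mean and 7 of 10 WT pieces lay above every matKO piece, while the 3 lowest WT pieces overlapped with matKO. Asz1 fell to 0.736 ± 0.638 CPM in matKO ExE, against 3.87 ± 3.11 CPM in WT ExE (SD, n = 8 and 10), which is -2.33 ± 0.71 on the log2 scale, and the adjusted p was 0.0197 by edgeR's quasi-likelihood test. Leaving out single libraries gave adjusted p between 0.00876 and 0.0452. The matKO values rest on 59 counts over the 8 libraries, against 333 counts over the 10 WT libraries.

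Tex101 stood at 0, 0, 0.385, 1.03, 2.16, 3.26, 3.72 and 3.91 CPM in matKO ExE, against 0 to 0.568 CPM with a median of 0.162 in WT ExE. In the matKO group 5 pieces lay above every WT piece and 3 lay within the WT range. The log2 fold change was 2.82 ± 0.95 (adjusted p = 0.0333), from 135 counts over the matKO libraries and 20 counts over the WT libraries. The call depended on single libraries: without female WT 1, 2, 3, 4 or 6, or without female matKO 2, 3 or 5, or without male matKO 1, the adjusted p lay between 0.0502 and 0.0907. Without scaling beyond library totals it was 0.0528. Such totals also moved the median of all genes to -0.40, against -0.07 with TMM scaling, and gave 1208 genes higher and 3435 lower, against 2000 higher and 1520 lower with TMM.

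The helicase gene Mov10l1 did not pass the threshold in ExE. It stood at 0.578, 1.46, 1.73, 2.07, 3.69, 3.79, 3.96 and 4.82 CPM in matKO, against a range between 0.130 and 2.52 CPM with a median of 0.815 in WT. In the matKO group 4 pieces lay above every WT piece (log2 fold change 1.61 ± 0.60, adjusted p = 0.0534), and DESeq2 gave an adjusted p of 0.0181. Sycp3 stood at 0, 0.283, 2.17, 5.06, 6.09, 7.03, 8.32 and 23.3 CPM in matKO, against 0 to 4.85 CPM with a median of 1.94 in WT, and 5 matKO pieces lay above every WT piece (log2 fold change 1.54 ± 0.76, adjusted p = 0.139). Its opposite-strand neighbour Chpt1 averaged 9.93 ± 3.499 CPM in matKO and 8.21 ± 2.94 CPM in WT ExE (SD, n = 8 and 10).

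Sycp1 differed in ExE by 1.47 ± 0.76 (adjusted p = 0.164), Mael by 0.68 ± 0.79 (adjusted p = 0.559) and Dazl by -0.92 ± 0.54 (adjusted p = 0.213) on the log2 scale. Ddx4, the most abundant of the 8 genes per kilobase in ExE of both genotypes, averaged 21.8 ± 10.9 CPM in matKO and 25.5 ± 16.5 CPM in WT ExE, with overlapping groups (SD, n = 8 and 10; log2 fold change -0.19 ± 0.37, adjusted p = 0.738). The median over the 8 genes was 1.07, against -0.07 over all genes. It includes Asz1, Tex101 and Sycp1, for which a single genotype reached the number the filter needed, so nothing is read from it. No difference between the sexes was called for any of the 8 genes or for any gene in ExE by edgeR. In this test 1 of the 8, Mov10l1, had an unadjusted p below 0.05, against 3.62% of all genes. Within males Mov10l1 was called (log2 fold change 3.08 ± 0.91, adjusted p = 0.0496) and within females Tex101 (3.74 ± 1.13, adjusted p = 0.0383), where 5.28% and 9.69% of all genes were called. The Mov10l1 call rests on 88 counts over 3 male matKO pieces and 12 counts over 4 male WT pieces. Its difference between the sexes was not called, so no effect particular to males is read from it. All 4 matKO pieces that took Tex101 past the filter on low counts were female. Its call within females is therefore not independent of the filter, and nothing is read from it.

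**Figure D5:**
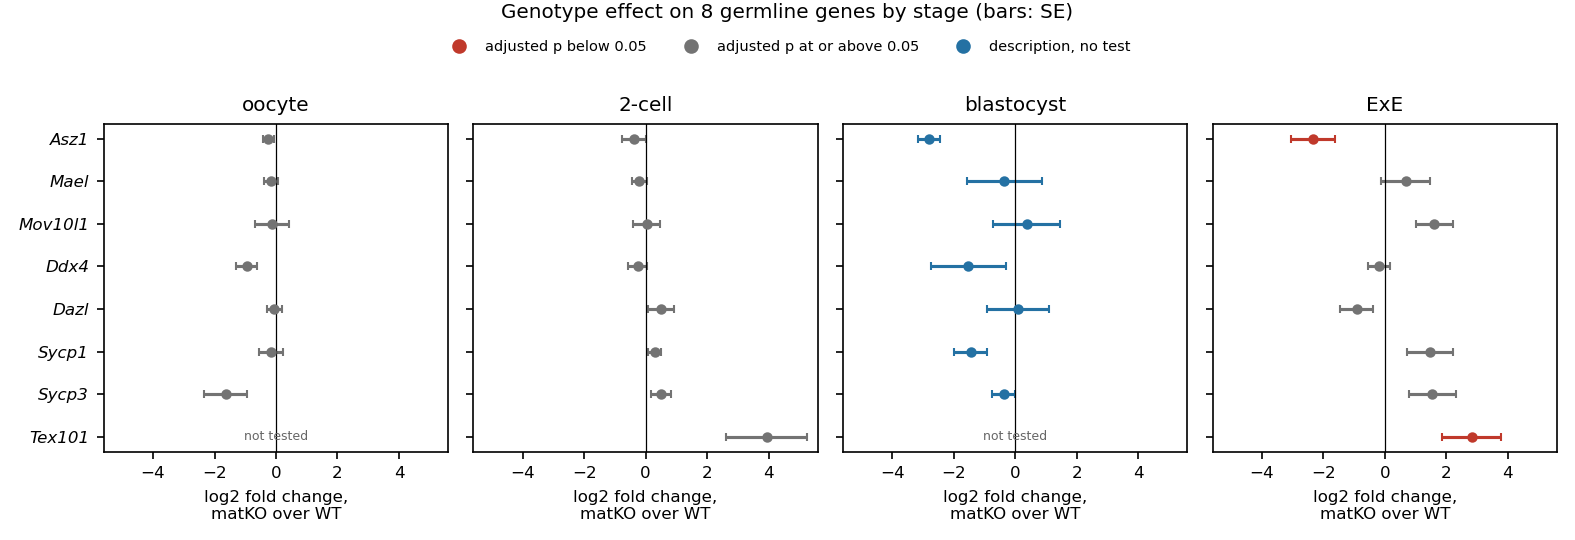
Log2 fold change of matKO over WT for each gene and stage, with bars of 1 SE; red points passed an adjusted p of 0.05, grey points did not, and blue points are a description of the contrast that chose the genes. Asz1 lies at -2.80 in blastocysts and -2.33 in ExE, at -0.25 in oocytes and at -0.38 in 2C embryos.

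Markers of other tissues are given beside the 24.9% of all genes called in ExE. Stroma markers, summed over 8 genes, ranged between 17.5 and 391 CPM in matKO and between 8.01 and 88.1 CPM in WT ExE, and 4 of 7 tested were called higher in matKO. Trophectoderm markers ranged between 787 and 5291 CPM in matKO and between 388 and 1492 CPM in WT, with 2 of 6 higher, and oocyte markers between 2.07 and 23.4 CPM in matKO and between 0.380 and 8.68 CPM in WT, with 1 of 3 tested higher. Bmp15, Zp2 and Oosp1 were at 0 in all WT ExE libraries, and no stroma or trophectoderm marker was at 0 in either genotype. Primordial germ cell markers ranged between 6.38 and 30.3 CPM in matKO and between 6.70 and 34.2 CPM in WT ExE, with 1 of 5 tested higher. Inner cell mass markers ranged between 323 and 1343 CPM in matKO and between 199.5 and 436 CPM in WT, with 1 of 7 higher. None of the 6 ExE and none of the 5 granulosa markers tested was called. The part of these tissues in the Asz1, Tex101 and Mov10l1 values was not tested.

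A further 4 lists described the surroundings of these genes. They held 19 piRNA pathway genes, 27 meiotic chromosome genes, 17 genes of germ cell identity and 26 genes of germline silencing. The last, named the silencer list, also holds Tet1, Tet2 and Tet3, whose products remove DNA methylation. The lists were drawn up from textbook knowledge but with earlier results of these data known. Calls on them, with their p-values, are therefore a description and not independent support. In oocytes 0 of 72 and in 2C embryos 0 of 78 tested genes were called by edgeR, with 8 and 11 at an unadjusted p below 0.05, against 6.26% and 14.2% of all genes, and DESeq2 called 0 at both stages. In blastocysts, where 6.3% of all genes were called, the lists had 1 of 15, 1 of 15, 2 of 8 and 1 of 26 genes called. Of 15 piRNA pathway genes Tex19.1, a germ cell gene whose product binds the piRNA protein PIWIL2, was higher at 494 ± 203 CPM in matKO and 269 ± 112 CPM in WT (log2 fold change 0.57 ± 0.17, adjusted p = 0.0383). Of 15 meiotic genes, Hormad2, an axis protein of the meiotic checkpoint, was lower at 4.07 ± 3.40 CPM in matKO and 14.3 ± 7.39 CPM in WT (-1.75 ± 0.49, adjusted p = 0.0288).

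Of 8 germ cell identity genes in blastocysts, Prdm14, a regulator of pluripotency and of primordial germ cells, was lower at 2.63 ± 2.54 CPM in matKO and 15.3 ± 6.67 CPM in WT (log2 fold change -2.51 ± 0.46, adjusted p = 0.00118), below the WT mean in 14 of 14 matKO blastocysts. Dppa3, which protects the maternal genome from demethylation, was higher at 2003 ± 453 CPM in matKO and 1447 ± 494 CPM in WT (0.44 ± 0.13, adjusted p = 0.0423). Of the 26 genes in the silencer list only Atf7ip, the partner of SETDB1, was called, higher by 0.64 ± 0.17 (adjusted p = 0.0208). Within D405T and D707T the log2 fold changes were 0.43 and 0.76 for Tex19.1, -1.40 and -2.23 for Hormad2, -1.80 and -3.57 for Prdm14, 0.79 and -0.07 for Dppa3, and 0.74 and 0.54 for Atf7ip. Of these, only Dppa3 and Atf7ip within D405T and Prdm14 within D707T had an adjusted p below 0.05 within a single prefix. Single libraries decided the calls of Dppa3, Tex19.1 and Hormad2, with adjusted p up to 0.116, 0.0892 and 0.0619 without 1 library. Without scaling beyond library totals, Tex19.1, Dppa3 and Atf7ip had adjusted p of 0.109, 0.125 and 0.0584. Median log2 fold changes were -0.26, 0.02, -0.05 and -0.03 for the piRNA, meiotic, identity and silencer lists, against -0.03 over all genes.

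In ExE 2 of 12 piRNA pathway genes (16.7%), 3 of 12 meiotic genes (25%) and 1 of 10 identity genes (10%) were called, against 24.9% of all genes, so these shares lay near or under that of all genes. Pnldc1, the nuclease that trims piRNA ends, fell to 8.13 ± 2.30 CPM in matKO, against 49.99 ± 43.6 CPM in WT (log2 fold change -2.60 ± 0.43, adjusted p = 0.000211), while the cochaperone gene Fkbp6 rose, with 88.0 ± 30.8 CPM in matKO and 47.6 ± 20.5 CPM in WT (0.96 ± 0.25, adjusted p = 0.00777). Of the meiotic genes, the cohesin genes Rec8 (1.40 ± 0.44) and Stag3 (2.26 ± 0.80) rose and Trip13, the ATPase that remodels HORMA proteins, fell by 0.62 ± 0.17, with adjusted p of 0.0236, 0.0422 and 0.0117. Dppa3 rose too (3.33 ± 1.02, adjusted p = 0.0209). For Stag3 and Dppa3 only matKO reached the number of pieces the filter on low counts needed, so their calls are not independent of it. At its level were 6 matKO and 2 WT pieces for Stag3, and 4 matKO pieces and 1 WT piece for Dppa3. Stag3 was not called without 13 of 18 single libraries, with adjusted p up to 0.101. Dppa3 was lost without female matKO 5 or male matKO 3, with adjusted p up to 0.104, and Rec8 without female matKO 5, at 0.0666. Without scaling beyond library totals, Fkbp6, Rec8 and Stag3 had adjusted p of 0.0569, 0.0604 and 0.0658.

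Of the 26 genes in the silencer list 4 were called in ExE, a share of 15.4%, against 24.9% of all genes. Ehmt2, which methylates H3K9, rose to 148 ± 53.7 CPM in matKO, against 76.1 ± 28.2 CPM in WT (log2 fold change 1.03 ± 0.25, adjusted p = 0.00555; 0.0707 without scaling). Setdb1, a further H3K9 methyltransferase, fell by 0.60 ± 0.17 (adjusted p = 0.0127), and the PRC1.6 genes E2f6 and Yaf2 fell by 0.83 ± 0.24 and 0.78 ± 0.28 (adjusted p = 0.0133 and 0.0463), each with 8 of 8 matKO libraries under the WT mean. Yaf2 was not called without 11 of the 18 single libraries, with adjusted p up to 0.0937. Median log2 fold changes of the piRNA, meiotic, identity and silencer lists in ExE were 0.08, 0.03, 0.15 and -0.03, against -0.07 over all genes. The genes whose levels were most like those of the remaining members over all 76 libraries were Taf9b for Dazl (Pearson r = 0.946), Clvs2 for Mael (0.929), Dbf4 for Sycp1 (0.922), Iqgap2 for Ddx4 (0.909), Bcl7c for Mov10l1 (0.854) and Mapk6 for Sycp3 (0.788), where all points share the differences between stages.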

How the data were processed

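The authors deposited raw counts for every gene in 1 table for each stage, with gene coordinates and lengths. The tools Trim Galore, STAR, SAMtools and featureCounts, and mouse build mm10, are named per the submitters' processing notes without versions. No source used here gives the strand setting, the rule for multi-mapping reads or the annotation release. The tables also held 8 count columns that match no sample in the labels and were not used. Groups combine the stage, genotype and sex of the labels. Nothing says which libraries share a litter, so a p-value here reflects differences among these libraries alone, and some of those may be technical. No 2 libraries of a group agreed within sampling noise (lowest chi-square per degree of freedom 10.1 over 183 pairs). No source used here says whether replicate numbers in the titles pair the libraries. Same-numbered libraries correlated above 0.1 in 2 of 3 oocyte, 3 of 11 2C, 9 of 13 blastocyst and 1 of 8 ExE pairs. The median r was 0.108, 0.012, 0.136 and -0.053 in the same order. The main fits leave these numbers out.

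Counts were fitted per stage with edgeR 4.0.16 (R 4.3.3): filterByExpr with a minimum count of 10, TMM scaling, estimateDisp, robust glmQLFit with legacy=TRUE and glmQLFTest, with sex as a term and library prefix as a further term in blastocysts. Benjamini-Hochberg adjustment ran over all genes of a fit, and the threshold was 0.05. WT stage steps came from 1 fit of 76 libraries. Levels are CPM with TMM factors of that fit, so they differ slightly from the scale of the stage fits. Counts were not corrected for depth beyond this scaling, and intervals for 0 counts cover counting error only. On simulated counts with 200 changed genes per fit, the procedure recovered 63.5% of 4-fold changes in oocytes and 57.9% in 2C embryos. It recovered 68.8% in blastocysts, 78.4% in ExE and 21.9% in the 2C over oocyte step. Of 2-fold changes it recovered 11.3%, 19.6%, 39.2%, 18.2% and 1.11% in the same order, so most changes of that size were missed in these simulations. Fits with a larger share of changed genes were not simulated. Of the calls, 4.0%, 5.19%, 1.89%, 4.08% and 0% were unchanged genes. The simulated counts held no difference between library prefixes. The older edgeR fit was used because an earlier account of these data found fewer false calls with it. Members and lists were chosen with earlier results of these data known. Genes named beside the members are Ezhip, per list and stage the called genes, at most 4, of lowest p, and the genes most correlated with a member on log2 CPM (prior count 2) among those with a mean of at least 5 CPM: 3 over all libraries, of which the first is printed except for Asz1, and 5 for Asz1 over blastocysts. The correlates of Tex101 reached at most 0.464 and are not described. Alternatives were legacy=FALSE, DESeq2 1.42.0, RLE factors, no scaling, no filter, no sex or prefix term, single prefixes, a replicate block and each library left out.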

Additional observations from a re-analysis of the deposited data

Results flagged for a closer look

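In ExE 2 values stood far from the rest of their group by Dixon's gap test, among 23 groups of 4 to 10 libraries examined; chance marks about 1 in 20 groups. Sycp3 reached 23.3 CPM in 1 male matKO ExE library, against 8.32 CPM in the next matKO library. Mael reached 3.71 CPM in 1 male WT ExE library, against 0.973 CPM in the next WT library.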

How the results depend on the processing

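The Asz1 log2 fold change in blastocysts, a description, lay between -3.21 (replicate block) and -2.46 (D405T alone) over the other settings, against -2.80. Of the 8 genes in 2C embryos, 1 was called with legacy=FALSE, which called 454 of all 14506 genes. In ExE 4 were called with legacy=FALSE and 1 without scaling, beside 4417 and 4643 of all 14156 genes. Of the lists, legacy=FALSE called 2 genes in 2C embryos. In blastocysts the main fit called 5 list genes, beside 847 of all 13445 genes. There legacy=FALSE called 13 (1796 of all genes), DESeq2 10 (1336), no prefix term 10 (1133), no scaling 3 (893) and D707T alone 1 (140 of 14244). The cause of these shifts was not tested, except that D707T alone holds fewer libraries.

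With 1 library left out, 0 to 0 of the 8 genes were called in oocytes and 2C embryos, and 1 to 3 in ExE; 0 to 0 list genes in oocytes and 2C embryos, 2 to 8 in blastocysts and 6 to 11 in ExE; 0 to 0 genes for a sex difference in 2C embryos and ExE; and 3 to 3 in the 2C over oocyte step, where leaving out a WT oocyte was chosen after seeing the data. Asz1 in blastocysts lay between -2.98 and -2.62.

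With 1 library left out, signs turned for uncalled values: log2 fold changes lay between -0.17 and 0.12 for Dazl and between -0.47 and 0.61 for Mov10l1 in oocytes, between -0.31 and 0.01 for Mael and between -0.18 and 0.39 for Mov10l1 in 2C embryos, and between -0.38 and 0.11 for Ddx4 in ExE. Under other settings, signs turned for uncalled values near 0: Dazl in oocytes (0.14, replicate block), Mov10l1 in 2C embryos (-0.04, no scaling), Ddx4 in ExE (0.02, replicate block), and Tex101 for blastocyst over 2C (-0.09 with RLE, -0.45 without scaling, -0.87 with D707T blastocysts) and ExE over blastocyst (0.97 with D707T blastocysts). In the untested blastocyst contrast signs turned for Dazl (0.10; -0.06 without scaling, -0.07 with the block), Mael (-0.35; 0.72 with legacy=FALSE, 1.67 in D405T) and Mov10l1 (0.38; -0.13 in D405T), and without single libraries for Dazl (5 libraries, down to -0.17), Mael (1, 0.08) and Mov10l1 (1, -0.24). The called list gene Dppa3 turned to -0.07 in blastocysts of D707T alone. With D707T blastocysts only, Dazl in the ExE over blastocyst step and Sycp3 in the blastocyst over 2C step were no longer called (adjusted p = 0.121 and 0.164), and Mael was called lower in ExE (adjusted p = 0.0328). With female libraries only, Tex101 was called higher for blastocyst over 2C (adjusted p = 0.0378).

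The replicate block, for which no source states a pairing, left 0 of the 8 genes called in oocytes and 2C embryos and 2 in ExE. Asz1 stood at -3.21 in blastocysts with it. Over all genes it gave 1 call in oocytes, 14 in 2C embryos, 427 in blastocysts and 2519 in ExE, against 3, 106, 847 and 3520 without it. DESeq2 called 36 genes in oocytes, 693 in 2C embryos and 1336 in blastocysts, legacy=FALSE 454 in 2C embryos and 1796 in blastocysts, no sex term 159 in 2C embryos, and D707T alone 140 in blastocysts. Without scaling the split of higher to lower calls was 31 to 91 in 2C embryos, against 45 to 61, and 209 to 684 in blastocysts, against 370 to 477. With RLE factors it was 3894 to 5564 in the 2C over oocyte step, against 4629 to 4318. In the shallowest 2C library a level of 1 CPM is about 1 count, so a Tex101 difference under that level was not detectable there.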
